A study of Mus musculus with 6 samples.

Results

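The C-type lectin receptors examined here are 10 sugar- and ligand-binding surface receptors of alternatively activated macrophages: Mrc1, Mgl2, Clec10a, Clec7a, Clec4n, Clec4d, Clec4e, Clec4a1, Clec4a2 and Clec12a. They were taken by name from 24445 genes in the count table, and for each gene the transcript row whose counts summed highest was used. All 10 were detected in every library and passed the filter on low counts, as did 12023 genes in all. RNA came from bone marrow-derived macrophages (BMDMs) of C57Bl/6J background mice, grown for 7 days in L929-conditioned medium and treated for 24 h with 100 U/mL IL-4. The AclyM-KO group carried loxP sites around exon 9 of Acly, which encodes the enzyme that makes cytosolic acetyl-CoA from citrate, together with Lyz2-Cre, whereas Ctrl macrophages came from Acly fl/fl littermates. The 2 groups therefore shared the floxed allele and the IL-4 treatment, and each had 3 libraries. Lyz2-Cre is described for AclyM-KO only, so effects of Cre and of the loss of Acly cannot be told apart here. Age and sex of the donors are not given in the sources used here, and macrophages without IL-4 were not analysed here, so no value below measures a response to IL-4. The Lyz2 promoter drives Cre in the myeloid lineage, so that recombination need not be complete, and the study describes its replicates both as biological and as technical ones of pooled mice. The p-values thus measure the spread between these libraries, which may be technical.

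C-type lectin receptors share a fold that binds sugars, lipids or proteins, and they fall into classes by how they signal. The mannose receptor and the galactose-type lectins mainly take up their glycoprotein ligands. Clec7a carries a hemITAM, an activating tyrosine motif that recruits the kinase Syk, and Clec4n, Clec4d and Clec4e use the ITAM of the adaptor Fcer1g for the same purpose. Clec4a2 and Clec12a carry an ITIM, an inhibitory tyrosine motif that recruits the phosphatases Ptpn6 and Ptpn11. Mrc1 and the galactose-type lectins are widely used surface markers of IL-4-treated mouse macrophages.

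The short coding stretches in which the members differ in this respect are shown first, because the results are ordered by these classes. Each was read 5′ to 3′ from the GENCODE M21 transcript of the row used, and the capitals mark the codons of the motif.
Mgl2, galactose-type Gln-Pro-Asp motif, residues 275 to 277 of 332: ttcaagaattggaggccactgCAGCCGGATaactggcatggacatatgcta
Clec10a, galactose-type Gln-Pro-Asp motif, residues 260 to 262 of 305: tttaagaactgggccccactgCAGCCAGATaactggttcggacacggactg
Clec4n, mannose-type Glu-Pro-Asn motif, residues 138 to 140 of 179: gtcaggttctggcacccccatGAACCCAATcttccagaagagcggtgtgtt
Clec4e, mannose-type Glu-Pro-Asn motif, residues 169 to 171 of 214: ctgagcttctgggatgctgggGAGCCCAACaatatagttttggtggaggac
Clec7a, hemITAM, residues 11 to 18 of 199: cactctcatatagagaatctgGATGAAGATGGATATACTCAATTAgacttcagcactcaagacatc
Clec4a2, ITIM, residues 5 to 10 of 238: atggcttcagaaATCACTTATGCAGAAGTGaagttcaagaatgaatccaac
Clec12a, ITIM, residues 5 to 10 of 267: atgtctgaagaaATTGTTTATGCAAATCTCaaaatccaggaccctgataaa
The Gln-Pro-Asp motif of galactose-binding lectins was found in Mgl2 and Clec10a and in no other member, whereas Mrc1 held the letters Glu-Pro-Asn at 3 places. A match of these letters need not lie in a sugar-binding site. Neither Clec4d nor Clec4a1 held any of the 4 motifs searched. The ITIM pattern matched Clec12a at 5 places, of which only the N-terminal match is printed. Over 918 aligned coding bases Mgl2 and Clec10a were identical at 91.4%, so counts of these near copies could in part be shared between them. Clec4a1 and Clec4a2 were identical at 71.3% of 707 bases, but this measure leaves out gaps and gave 70.8% for Mgl2 and Clec4n. Over all alignment columns, gaps included, the values were 67.4% for Clec4a1 and Clec4a2 and 37.2% for Mgl2 and Clec4n.

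Libraries held 12151975 to 14739689 counts in Ctrl and 14745614 to 15587283 in AclyM-KO on the rows used. Acly itself was at 332.2, 321.0 and 349.6 counts per 1000000 (CPM) across Ctrl libraries and at 146.0, 133.7 and 135.5 CPM across AclyM-KO libraries, so the labels and the targeted gene go together and 41.4% of the Ctrl level remained. The count covers the full transcript, of which the floxed exon is a small part. All 10 macrophage markers examined were tested and present, among them Lyz2 (6595 CPM in Ctrl) and Cd68 (2430 CPM). Their summed level was 13810 to 15160 CPM in Ctrl and 11530 to 11990 CPM in AclyM-KO. Lyz2, whose promoter drives Cre, was the largest part of this sum and went from 6595 to 4142 CPM. Most of the gap between the summed levels lay in this gene. Csf1r went from 2434 to 2119 CPM, whereas Adgre1 rose from 1573 to 1978 CPM. Cd68, at 2430 and 2280 CPM, did not pass (edgeR adjusted p = 0.0756) and its groups overlapped. Of the 10 macrophage markers 5 were lower and 1 was higher by the test used below, beside 12.6% and 12.4% of all genes tested. Lyz2 (log2 fold change -0.67), Mertk (-0.73) and Aif1 (-0.61) were beyond the fold limit. Some markers of other cells also moved. Summed monocyte markers ran from 23.3 to 30.7 CPM in Ctrl and from 37.6 to 44.3 CPM in AclyM-KO, with Spn (1.16) higher, F13a1 (-0.89) lower and Cx3cr1 at 0 in every library. Neutrophil markers summed to 17.1 to 19.3 CPM and 24.9 to 26.7 CPM, with S100a8 (0.85) and S100a9 (0.59) higher. Ngp (0.37, edgeR adjusted p = 0.108) and Ltf (0.35, edgeR adjusted p = 0.206) did not pass. The other neutrophil markers, Ly6g and Mpo among them, had too few counts to be tested. Dendritic cell markers, mostly Irf8, which macrophages also express, summed to 199.8 to 221.1 CPM and 153.8 to 161.2 CPM, with Irf8 (-0.43) and Batf3 (-0.57) lower and Cd209a (1.65) higher and beyond the fold limit. Lymphocyte markers summed to 16.7 to 20.6 CPM and 11.5 to 14.2 CPM, with Cd79b (-0.93) and Cd4 (-0.57) lower and Ncr1 at 0. Fibroblast markers overlapped between groups, at 3.57 to 5.95 CPM and 3.15 to 3.98 CPM. Postn (-1.07), the only 1 of the 8 tested, was lower, and Lum was at 0. The others had too few counts to be tested, with higher (Col1a1, Col1a2, Dcn, Pdgfra, Thy1) or lower (Col3a1) means in AclyM-KO. Mast cell, basophil and eosinophil markers overlapped too, at 21.4 to 27.9 CPM and 20.6 to 27.7 CPM, mostly Ccr3 (-0.01, edgeR adjusted p = 0.977), and 5 of the 10 were at 0. The part of these lists in the results below was not tested, and in bulk RNA fewer cells of a type and less RNA per cell cannot be told apart.

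The 2 groups were compared to ask whether loss of Acly changed receptor expression in IL-4-treated macrophages. The receptors moved in both directions. By edgeR's quasi-likelihood test over 12023 genes, with Benjamini-Hochberg adjustment and a limit of 0.05, 4 of the 10 members were lower and 3 were higher in AclyM-KO. The lower receptors were Mgl2, Clec4a1, Clec4a2 and Clec12a, and the higher ones Clec10a, Clec4d and Clec4e. Mrc1, Clec7a and Clec4n did not pass. Over all genes tested 24.9% passed in either direction, 12.6% lower and 12.4% higher. With a further limit of 0.58 on the size of the log2 fold change, 1 member was lower (Mgl2) and 2 were higher (Clec4d and Clec4e), against 2.57% and 2.98% of all genes. The groups did not overlap for 7 members, against 40.2% of all genes. The median log2 fold change of the members was -0.04, beside 0.00 over all genes, with 7 members below 0 and 3 above. The values of Mgl2, Clec4d and Clec4e lay close to the fold limit, and edgeR's test against that limit itself (glmTreat) called 0 members, also at an unadjusted p under 0.05.

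**Figure D1:**
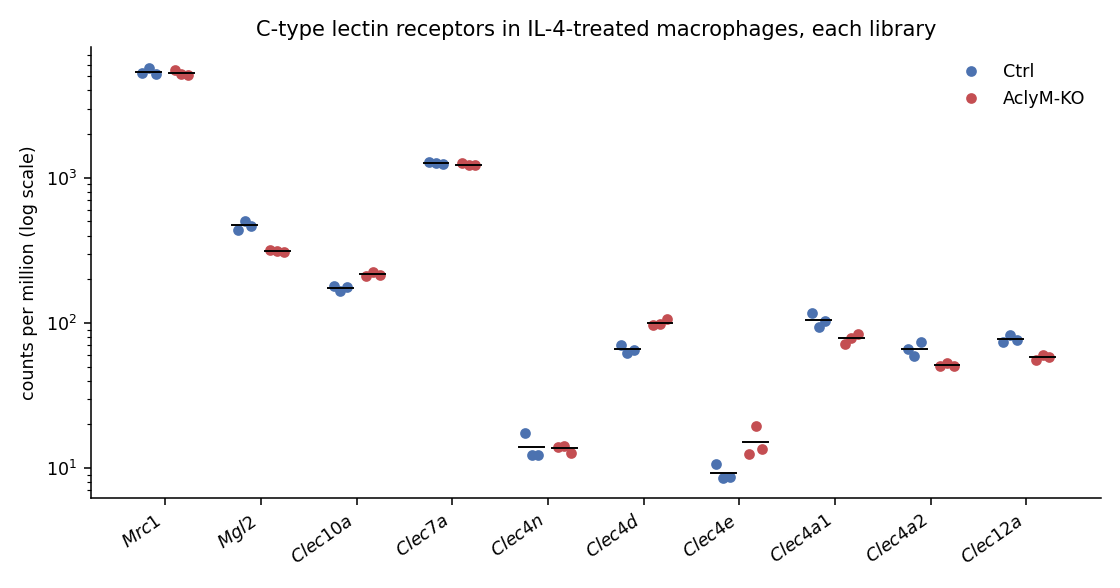
Level of the 10 receptors in each library, in CPM on a log scale. Points are the 3 Ctrl and 3 AclyM-KO libraries and black lines are group means. The groups overlap for Mrc1, Clec7a and Clec4n and are apart for the other 7 receptors.

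Levels were set against each other per kilobase of transcript (CPM per kb) in Ctrl macrophages. Clec7a (1789 CPM per kb) and Mrc1 (1004) were highest, followed by Mgl2 (296.8), Clec10a (119.3), Clec4a2 (72.5), Clec4a1 (66.9), Clec4d (49.9), Clec12a (31.01), Clec4n (12.3) and Clec4e (3.70). The place of 2 members depends on the transcript, because several rows of a gene held the same or nearly the same counts. With the longest paired transcript Clec7a came to 556.8 CPM per kb, below Mrc1, and Clec4a2 to 26.8, below Clec12a. Among neighbours in this order, Clec4a2 (64.8 to 80.9 CPM per kb) and Clec4a1 (60.2 to 74.6) overlapped over the Ctrl libraries. In AclyM-KO macrophages Clec4d (75.9 CPM per kb) stood above Clec4a2 (55.9) and Clec4a1 (50.1), whereas in Ctrl it stood below both with the transcripts of the rows used.

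Of the endocytic receptors, the galactose-type pair moved apart and the mannose receptor stayed near its Ctrl level. Mrc1 (CD206), which clears mannose-bearing glycoproteins and lies at chr2:14229392-14332057 (GRCm38, plus strand), was at 5282, 5728 and 5182 CPM across Ctrl libraries and at 5539, 5209 and 5139 CPM across AclyM-KO libraries. The groups overlapped, with the highest library in Ctrl and the lowest in AclyM-KO. The log2 fold change was -0.03 (SE 0.0386, 95% interval -0.11 to 0.05, edgeR adjusted p = 0.655).

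Mgl2 (CD301b), which binds terminal galactose and N-acetylgalactosamine, was at 440.0, 503.9 and 468.4 CPM across Ctrl libraries and at 317.2, 312.4 and 305.8 CPM across AclyM-KO libraries. Every AclyM-KO library lay well below every Ctrl library, and the AclyM-KO libraries differed little among themselves. The mean fell from 470.8 ± 32.04 to 311.8 ± 5.68 CPM (SD, n = 3), 66.2% of Ctrl, with a log2 fold change of -0.59 (SE 0.0520, edgeR adjusted p = 9.257e-07), rank 83 by p among the genes tested. Without Ctrl replicate 2, the library with the highest Mgl2, the log2 fold change was -0.55 and no longer beyond the fold limit.

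Clec10a (CD301a), the neighbouring gene with 91.4% coding identity, went the other way. It was at 178.6, 164.9 and 176.8 CPM across Ctrl libraries and at 211.8, 222.9 and 212.6 CPM across AclyM-KO libraries. All AclyM-KO libraries were above all Ctrl libraries. The mean rose from 173.4 ± 7.45 to 215.8 ± 6.15 CPM (SD, n = 3), with a log2 fold change of 0.31 (SE 0.0505, edgeR adjusted p = 3.097e-04), within the fold limit.

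The difference between the changes of the pair was also expressed within libraries, as the ratio of Mgl2 to Clec10a counts, which does not depend on library scaling and can fall through either gene alone. The ratio was 2.46, 3.06 and 2.65 across Ctrl libraries and 1.497, 1.402 and 1.438 across AclyM-KO libraries. Mgl2 counts exceeded Clec10a counts in all 6 libraries, and the 2 sets of ratios were well apart. The mean log2 ratio was lower in AclyM-KO by -0.91 (SE 0.0955), and the two-sided exact permutation test gave p = 0.10, the smallest value that 3 against 3 libraries allow. How reads that match both genes were assigned is not given in the sources used here, and their part in the ratio was not tested.

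**Figure D2:**
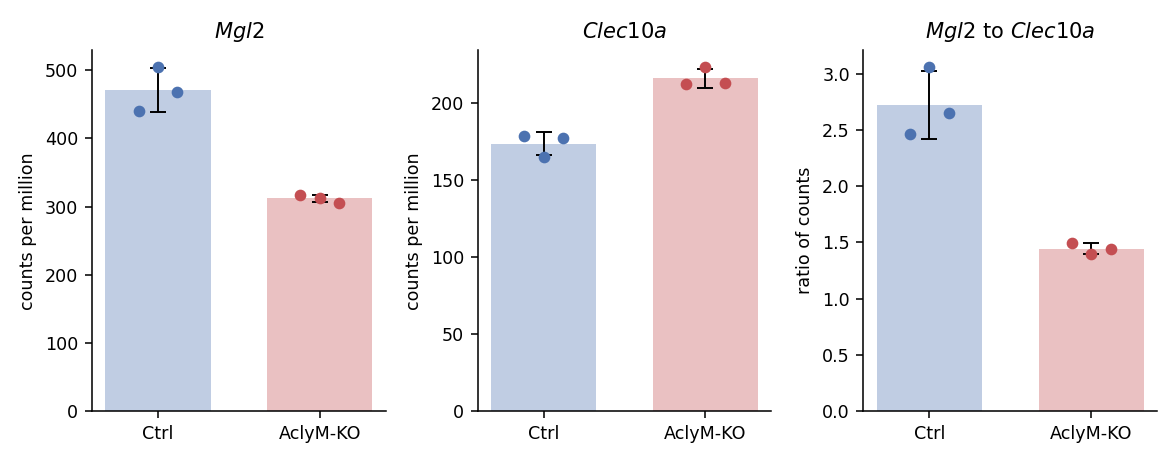
Mgl2 and Clec10a in CPM, and the ratio of their counts, in each library. Bars are group means, error bars SD and points the 3 libraries of a group. Mgl2 is lower and Clec10a higher in AclyM-KO, and the ratio lies between 2.46 and 3.06 in Ctrl and between 1.402 and 1.497 in AclyM-KO.

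On chromosome 11 Mgl2 (chr11:70130329-70137550) and Clec10a (chr11:70156197-70170834, both plus strand) span 40.5 kb. The nearest tested gene upstream, the asialoglycoprotein receptor gene Asgr2 (1.63 and 1.1 CPM, log2 fold change -0.58, edgeR adjusted p = 0.231), and the nearest downstream, the transporter gene Slc16a13 (10.7 and 11.9 CPM, 0.15, edgeR adjusted p = 0.354), did not pass. Beside Mrc1, Stam did not pass (-0.02, edgeR adjusted p = 0.886) and the zinc transporter gene Slc39a12 was higher, from 18.1 to 23.9 CPM (0.41, edgeR adjusted p = 0.00626).

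Of the activating receptors, Clec4d and Clec4e rose and Clec7a and Clec4n did not pass. Clec7a (Dectin-1), the receptor of fungal beta-glucans with a hemITAM of its own, was at 1288, 1256 and 1250 CPM across Ctrl libraries and at 1257, 1227 and 1222 CPM across AclyM-KO libraries. The groups overlapped by a narrow margin. The log2 fold change was -0.03 (SE 0.0361, 95% interval -0.11 to 0.04, edgeR adjusted p = 0.535).

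Clec4n (Dectin-2), which binds fungal mannans through the Glu-Pro-Asn motif shown above, was at 17.5, 12.4 and 12.2 CPM across Ctrl libraries and at 14.0, 14.2 and 12.8 CPM across AclyM-KO libraries. Ctrl replicate 1 stood above the other 5 libraries, which lay close together. The log2 fold change was -0.05 with an interval from -0.33 to 0.23 (edgeR adjusted p = 0.819), at 151 to 259 counts per library. Without Ctrl replicate 1 the sign turned, to 0.15 (edgeR adjusted p = 0.410).

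Clec4d (MCL) and Clec4e (Mincle) form a receptor for mycobacterial cord factor, and Clec4e also senses a protein released by dead cells. Clec4d was at 70.5, 61.8 and 65.5 CPM across Ctrl libraries and at 96.9, 97.7 and 106.5 CPM across AclyM-KO libraries. The lowest AclyM-KO library was well above the highest Ctrl library. The mean rose from 65.96 ± 4.37 to 100.4 ± 5.30 CPM (SD, n = 3), with a log2 fold change of 0.60 (SE 0.0597, edgeR adjusted p = 3.111e-06), rank 130 by p among the genes tested. It stayed positive and past the p limit whichever library was left out, with 0.56 without Ctrl replicate 2 and 0.56 without AclyM-KO replicate 3, both within the fold limit.

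Clec4e had the fewest counts of the members in Ctrl, with 105 to 157 counts in Ctrl libraries and 183 to 301 in AclyM-KO libraries. It was at 10.6, 8.59 and 8.73 CPM in Ctrl and at 12.5, 19.4 and 13.5 CPM in AclyM-KO. The groups did not overlap, and AclyM-KO replicate 2 stood well above the others. The log2 fold change was 0.70 (SE 0.158, edgeR adjusted p = 0.00459), and 0.47 without AclyM-KO replicate 2 (edgeR adjusted p = 0.0338), then within the fold limit.

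The inhibitory receptors and their relative Clec4a1 were lower in AclyM-KO, with log2 fold changes from -0.42 to -0.38, all within the fold limit. Clec4a2 (DCIR), whose ITIM stands near its N terminus, was at 66.0, 59.5 and 74.3 CPM across Ctrl libraries and at 50.5, 53.0 and 50.3 CPM across AclyM-KO libraries. The groups did not overlap and the spread was wider in Ctrl. The log2 fold change was -0.38 (SE 0.0711, edgeR adjusted p = 0.00118).

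Clec12a (MICL), an ITIM receptor that binds uric acid crystals, was at 74.4, 82.0 and 76.4 CPM across Ctrl libraries and at 55.5, 60.5 and 58.1 CPM across AclyM-KO libraries. All AclyM-KO libraries were below all Ctrl libraries, with a clear gap. The mean fell from 77.6 ± 3.92 to 58.1 ± 2.51 CPM (SD, n = 3), with a log2 fold change of -0.42 (SE 0.0569, edgeR adjusted p = 7.698e-05).

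Clec4a1 (DCIR4), a relative of Clec4a2 without the ITIM, was at 116.3, 93.8 and 102.8 CPM across Ctrl libraries and at 71.6, 78.4 and 84.2 CPM across AclyM-KO libraries. The groups did not overlap, although the highest AclyM-KO library came near the lowest Ctrl library. The log2 fold change was -0.42 (SE 0.0742, edgeR adjusted p = 7.161e-04). With exact permutation tests on CPM, each of the 7 members that passed gave p = 0.10, the smallest possible, while Mrc1 gave p = 0.60, Clec7a p = 0.30 and Clec4n p = 1.

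**Figure D3:**
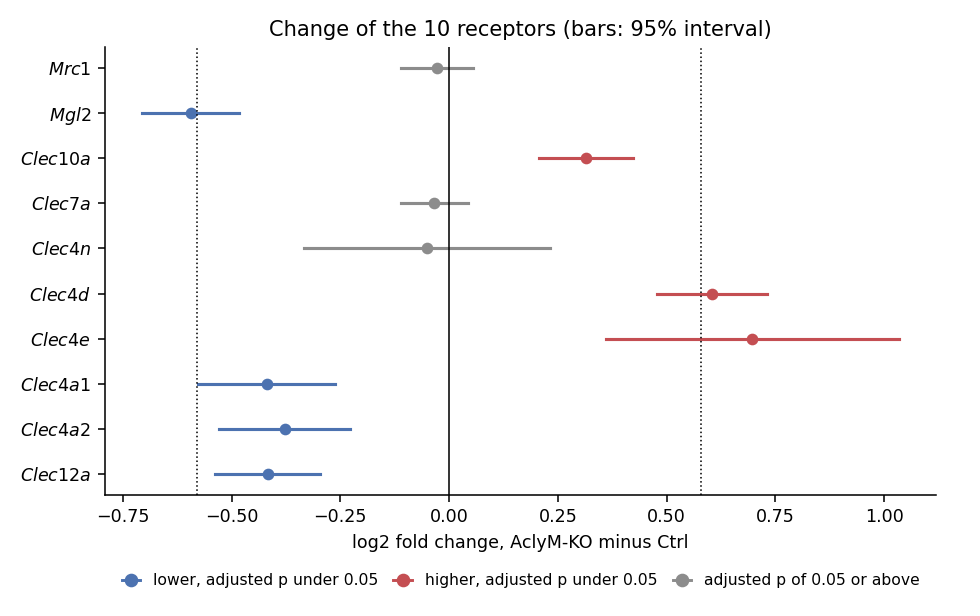
Log2 fold change (AclyM-KO minus Ctrl) of each receptor, ordered by class, with its 95% interval from edgeR. Dotted lines mark the fold limit of 0.58 either way. The intervals of Mrc1, Clec7a and Clec4n include 0, those of Mgl2, Clec4a1, Clec4a2 and Clec12a lie below 0, and those of Clec10a, Clec4d and Clec4e above it.

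Clec4a1, Clec4a2, Clec4n, Clec4d and Clec4e lie together in 368.0 kb of chromosome 6 (chr6:122921848-123289870). In order along the chromosome, Clec4a1 was lower, then came Clec4a3 (lower), Clec4a4 and Clec4b1 (neither passed), Clec4a2 (lower), Clec4b2 (too few counts to be tested), Clec4n (did not pass) and finally Clec4d and Clec4e (both higher). Clec4a3, a further relative of Clec4a2, fell from 159.6 ± 11.8 to 133.7 ± 2.72 CPM (SD, n = 3), with a log2 fold change of -0.26 (edgeR adjusted p = 0.00366). Clec4a4 (-0.09, edgeR adjusted p = 0.853) and Clec4b1 (-0.04, edgeR adjusted p = 0.928) were below 3 CPM. The 3 genes that fell all lay before Clec4n and the 2 that rose after it, and no test of position was made. The nearest tested gene before the cluster, the endocytosis gene Necap1, was at 69.8 and 73.1 CPM (0.07, edgeR adjusted p = 0.416). The nearest tested gene after it was the haemoglobin scavenger receptor gene Cd163 (chr6:124304656-124330527), farther from the cluster than the cluster is long. Cd163 was higher, from 57.95 to 79.7 CPM (0.46, edgeR adjusted p = 1.189e-05).

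**Figure D4:**
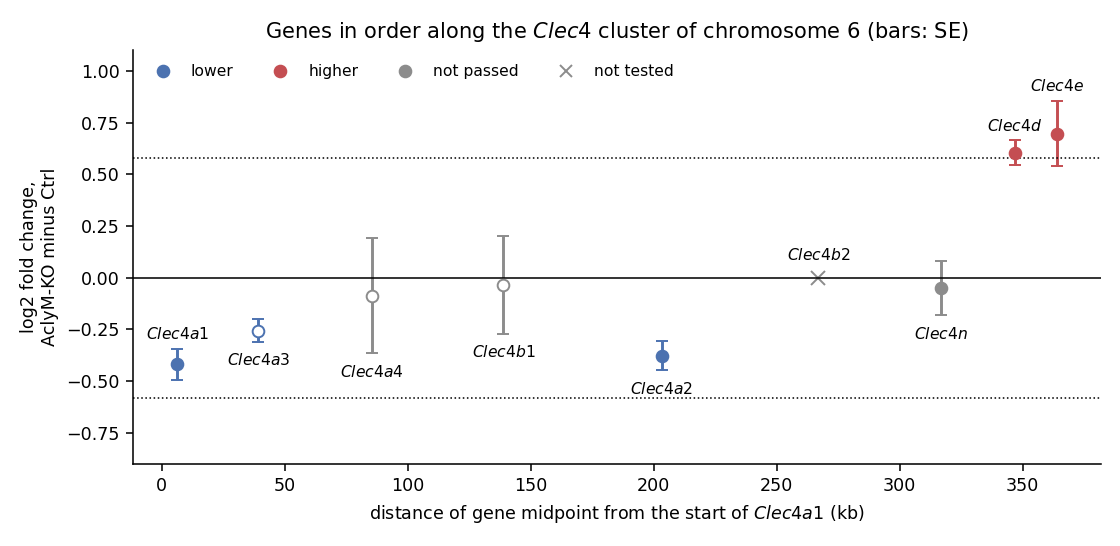
Log2 fold change (AclyM-KO minus Ctrl, bars SE) of the genes of the Clec4 cluster against the distance of each gene's midpoint from the start of Clec4a1 in kb. Filled points are the receptors examined, open points other genes of the cluster, the cross a gene that was not tested, and dotted lines the fold limit of 0.58. Clec4d and Clec4e, at the far end, lie above 0, while Clec4a1, Clec4a3 and Clec4a2 lie below it.

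Clec12a (chr6:129342691-129365303) and Clec7a (chr6:129461591-129472779, minus strand) lie within 130.0 kb farther along chromosome 6. Between them Clec12b, Clec1b and Clec9a had too few counts to be tested and Clec1a did not pass (-0.25, edgeR adjusted p = 0.620). On either side, Cd69 (-0.09, edgeR adjusted p = 0.902) and the oxidised lipoprotein receptor gene Olr1 (-0.31, edgeR adjusted p = 0.283) did not pass. In the transcripts of the rows used, no exon of a member overlapped an exon of another gene on either strand in GENCODE M21.

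The sequence before the start of genes that moved is shown for Mgl2 and for the members of the Clec4 cluster that fell or rose, so that the windows can be compared. Each is the 250 bases before the RefSeq start (GRCm38.p6), written 5′ to 3′ on the strand of the gene. The Clec4a2 window lies wholly inside the gene's GENCODE span (chr6:123106428-123143999), as does that of Clec12a, which is not printed. Capitals mark the letters TTCNNNNGAA (the spacing bound by STAT6, the factor that IL-4 activates), TTCNNNGAA (other STAT factors) and GAGGAA (PU.1, the macrophage lineage factor), on either strand.
Mgl2 promoter, chr11:70130107-70130356, plus strand: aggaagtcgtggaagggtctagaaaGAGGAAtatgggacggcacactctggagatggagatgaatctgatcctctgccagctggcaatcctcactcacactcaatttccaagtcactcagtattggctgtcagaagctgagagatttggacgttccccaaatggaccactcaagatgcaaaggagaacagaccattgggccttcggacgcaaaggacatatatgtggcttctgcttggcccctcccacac
Clec4a1 promoter, chr6:122921598-122921847, plus strand: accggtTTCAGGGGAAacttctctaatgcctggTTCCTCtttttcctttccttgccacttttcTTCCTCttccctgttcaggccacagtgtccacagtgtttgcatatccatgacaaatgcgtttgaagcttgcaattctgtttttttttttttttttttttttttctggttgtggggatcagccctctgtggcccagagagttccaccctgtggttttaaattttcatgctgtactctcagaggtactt
Clec4a2 promoter, chr6:123122440-123122689, plus strand: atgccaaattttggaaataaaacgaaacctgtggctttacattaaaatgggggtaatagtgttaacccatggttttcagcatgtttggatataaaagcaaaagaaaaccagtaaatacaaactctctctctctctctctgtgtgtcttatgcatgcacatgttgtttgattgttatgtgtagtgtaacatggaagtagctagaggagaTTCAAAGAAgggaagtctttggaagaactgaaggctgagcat
Clec4d promoter, chr6:123261857-123262106, plus strand: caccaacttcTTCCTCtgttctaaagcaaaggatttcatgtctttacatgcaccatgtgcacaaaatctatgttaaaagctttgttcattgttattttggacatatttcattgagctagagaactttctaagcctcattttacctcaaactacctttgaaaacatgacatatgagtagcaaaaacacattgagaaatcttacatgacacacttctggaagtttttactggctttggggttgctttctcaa
Clec4e promoter, chr6:123289872-123290121, minus strand: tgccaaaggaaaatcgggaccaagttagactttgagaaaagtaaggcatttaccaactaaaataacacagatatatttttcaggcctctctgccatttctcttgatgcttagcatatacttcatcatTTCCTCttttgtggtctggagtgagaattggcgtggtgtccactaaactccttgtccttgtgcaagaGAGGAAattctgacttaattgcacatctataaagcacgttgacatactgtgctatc
RefSeq entries were found for 8 of the 10 members, and Clec10a and Clec4n had no entry. The STAT6-type letters were found in the windows of Clec4a1 and Clec7a, and in 5.85% of 32851 promoters of the same length. The other STAT spacing was found in Clec4a2 and in 7.02% of promoters. PU.1-type letters were found in each of the 5 windows printed except that of Clec4a2, and in 23.3% of promoters. They were also found in the windows of Mrc1 and Clec7a, which did not pass, and of Clec12a. AP-1-type letters (TGANTCA, 6.75% of promoters) were found in Clec12a only among the members, and C/EBP-type letters (TTGCNNAA, 9.56%) in Clec4e and Clec12a. A match describes the letters in this window and is no measure of binding.

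Among 35 other C-type lectin receptors and related lectins, 17 passed the filter, 4 were lower and 3 were higher, beside 12.6% and 12.4% over all genes. Beyond the fold limit were 1 lower and 1 higher, beside 2.57% and 2.98%, and the median log2 fold change of the list was -0.09. The lower genes were Clec2i, a ligand of natural killer cell receptors, the myeloid receptor gene Clec5a, Cd72 and Clec4a3. Clec2i fell from 14.2 ± 1.13 to 8.75 ± 0.785 CPM (SD, n = 3; log2 fold change -0.69, edgeR adjusted p = 4.938e-04) and alone of the 4 was beyond the fold limit. Cd72, at 124.5 and 93.3 CPM, had a log2 fold change of -0.42, and Clec5a, at 36.8 and 28.0 CPM, one of -0.39. The higher genes were Cd209a, Cd93 and the scavenger receptor gene Colec12. Cd209a, a relative of DC-SIGN, rested on 3 to 6 counts in Ctrl libraries and 12 to 16 in AclyM-KO libraries (1.65, edgeR adjusted p = 0.0128), and it also stands in the list of dendritic cell markers. Cd93, the gene of this list with the highest CPM, was at 674.8 and 730.8 CPM (0.11, edgeR adjusted p = 0.0495), and Colec12 at 23.7 and 33.0 CPM (0.48). Clec4f, Clec4g, Clec14a, Cd209f and Reg3g were at 0 in all libraries. Clec5a, Cd72 and Colec12 were named after their values were seen.

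Of 32 genes that carry signals from these receptors, all were tested, 15 were lower and 3 were higher. For this list the groups did not overlap for 21 genes and the median log2 fold change was -0.15, beside 12.6% lower, 12.4% higher and 40.2% without overlap over all genes. Most changes were small, and 2 were beyond the fold limit. Nfatc2, a calcium-dependent transcription factor, fell from 22.9 ± 3.16 to 13.3 ± 0.315 CPM (SD, n = 3; log2 fold change -0.78, edgeR adjusted p = 6.975e-05). Egr3, an early response transcription factor, fell from 6.62 to 4.31 CPM (-0.61, edgeR adjusted p = 0.0197).

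The signalling genes with the highest CPM were Prkcd, the kinase between Syk and Card9, and the ubiquitin ligase gene Cblb. Prkcd was at 604.4, 594.9 and 585.5 CPM across Ctrl libraries and at 446.9, 452.6 and 460.9 CPM across AclyM-KO libraries. The groups were far apart and each was tight (log2 fold change -0.39, SE 0.0417, edgeR adjusted p = 6.904e-06). Cblb was higher, at 580.1 and 648.8 CPM (0.16, edgeR adjusted p = 0.0362), as was the phosphatase gene Ptpn11 (0.22). Further genes of the list were named for their role after their values were seen. The adaptor Fcer1g, which Clec4d, Clec4e and Clec4n share, was at 443.6 and 412.7 CPM and did not pass (-0.10, edgeR adjusted p = 0.181). The adaptor Tyrobp (-0.17, edgeR adjusted p = 0.0144) and Syk (-0.14, edgeR adjusted p = 0.0287) were lower, and Card9 did not pass (-0.23, edgeR adjusted p = 0.0549). Of the phosphatases that ITIMs recruit, Ptpn6 was lower (-0.20, edgeR adjusted p = 0.0153) and Ptpn11 higher.

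**Figure D5:**
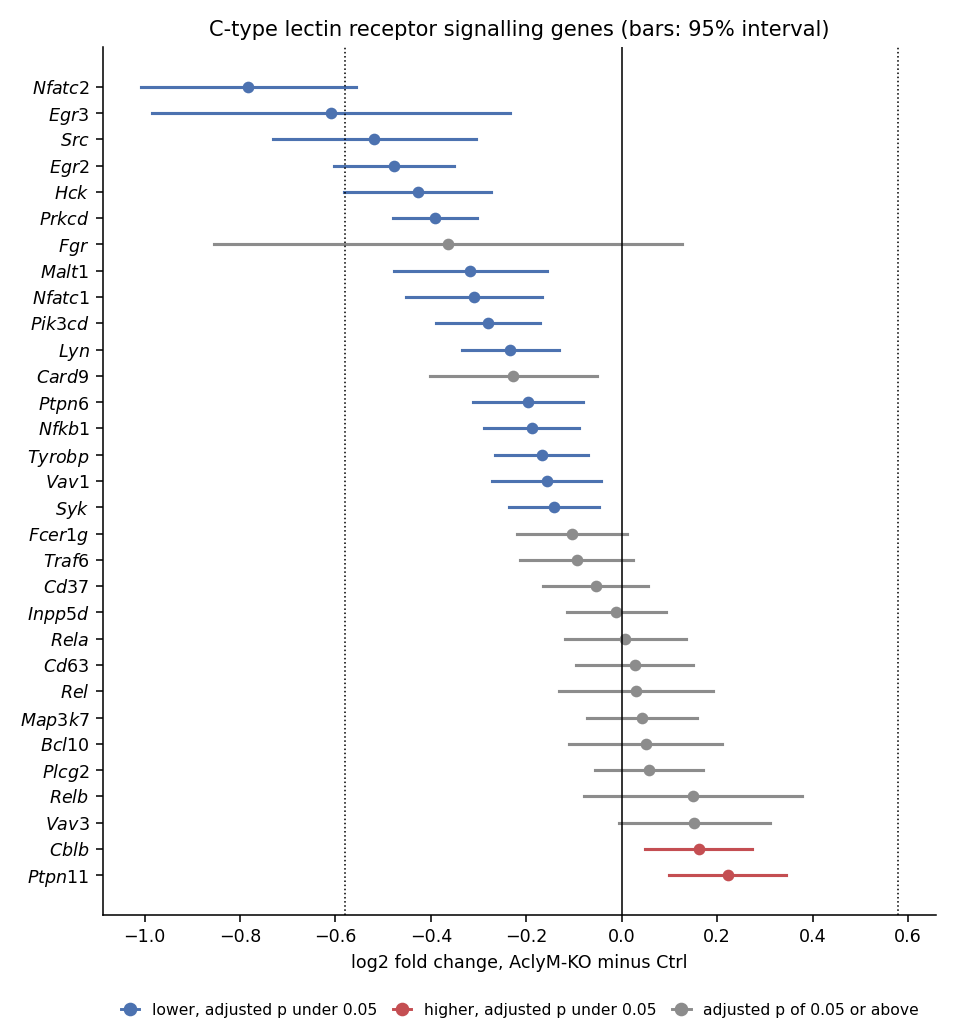
Log2 fold change (AclyM-KO minus Ctrl) of 31 C-type lectin receptor signalling genes, ordered by size, with 95% intervals from edgeR. Dotted lines mark the fold limit of 0.58. Nfatc2 and Egr3 lie beyond the lower limit, 15 genes pass below 0 and 2 (Cblb and Ptpn11) above it.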

How the data were processed

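RNA of IL-4-treated BMDMs was made into 6 strand-specific mRNA libraries. The authors aligned the reads to mm10 with STAR 2.5.2b after base calling with CASAVA 1.8.2 (submitters' processing notes), and deposited raw counts per RefSeq transcript; the counting program and its treatment of reads with several matches are not given in the sources used here. Of 35745 rows, 35440 were paired with genes through RefSeq GRCm38.p6 and 188 through GENCODE M21. The 117 others held 0.37% to 1.38% of the counts per library and were left out. Because rows of a gene often repeat the same counts, the row with the highest total stood for the gene, giving 24445 genes. The planned tests per gene were run on these rows.

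Counts were filtered with filterByExpr, scaled by TMM and compared with edgeR 4.0.16 (glmQLFit, glmQLFTest, genotype only) in R 4.3.3, with Benjamini-Hochberg adjustment over 12023 genes. CPM used TMM-scaled library sizes, intervals are 95%, and the limits were an adjusted p of 0.05 and a log2 fold change of 0.58. The scripts were tested on simulated data. Counts of libraries of the same group differed by more than sampling noise (chi-square per gene 2.32 to 7.47), so each was taken as a library of its own. DESeq2 1.42.0, limma 3.58.1 (voom), other scalings, filters and row choices, a replicate block, glmTreat and leaving out each library were alternatives.

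Members and lists were chosen with earlier results of these data known. Named were all members, Acly, and from each other list the genes beyond both limits (at most 6) and the 2 with the highest mean CPM, plus genes between or next to members on the chromosome. Protein sequences were not used here. Motifs were found by translating GENCODE coding sequences and by searching RefSeq promoter windows. Individual values of 2 genes of the lists are not reported here, and the list counts include them.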

Additional observations from a re-analysis of the deposited data

How the results depend on the processing

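The split of the members into 4 lower and 3 higher by adjusted p was the same under every alternative run, the replicate block included, and 158 of 160 refitted fold changes of members kept their direction and side of the p limit. The other 2, neither past the p limit, reversed: Mrc1, at -0.061 to 0.0128 when a library was left out, without Ctrl replicate 2, and Clec4n, at -0.1479 to 0.1481, without Ctrl replicate 1. The fold limit was less stable. Against 1 member lower and 2 higher, glmTreat and a limit of 1 on the log2 scale gave 0 and 0, and leaving out a library gave 0 to 1 lower (0 without Ctrl replicate 2) and 1 to 2 higher (1 without Ctrl replicate 2, AclyM-KO replicate 2 or AclyM-KO replicate 3). For the other C-type lectin receptors, with 1 lower and 1 higher, glmTreat gave 0 and 0, a limit of 1 gave 0 lower, DESeq2 and a minimum of 10 counts in every library gave 0 higher, and leaving out a library gave 0 to 1 higher (0 without Ctrl replicate 1). The 2 signalling genes called lower became 0 with glmTreat and with the limit of 1, and 1 to 2 without a library (1 without Ctrl replicate 2 or 3, or AclyM-KO replicate 1 or 2). At an unadjusted p under 0.05 glmTreat called 0 members, 1 other receptor and 1 signalling gene. Beyond the values' nearness to the limit and the fewer libraries, the cause was not tested. Libraries with the same replicate number did not deviate together (correlations -0.065, 0.05 and -0.031), so the numbers were not taken as pairs. With the replicate block 1329 genes were lower and 1315 higher, against 1511 and 1485, and the log2 ratio of Mgl2 to Clec10a was -0.91 (exact paired permutation p = 0.25, the smallest that 3 pairs allow). With glmTreat 41 genes were lower and 77 higher. Leaving out a library gave 972 to 1548 lower and 1002 to 1512 higher. Scaling to total counts moved the median log2 fold change of all genes to -0.02, the largest shift among the scalings run. The members with the fewest counts, Clec4e and Clec4n, had the widest intervals.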

Other observations

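Siglecs and galectins, other families that read surface sugars, were examined beside the C-type lectins. Of 14 listed, 10 were tested, 4 were lower and 3 were higher, beside 12.6% and 12.4% over all genes. Siglec1, the sialic acid receptor of tissue macrophages that is also induced by interferon, was at 188.2, 211.4 and 198.2 CPM in the Ctrl libraries and at 126.6, 106.0 and 121.6 CPM in the AclyM-KO libraries. The groups were far apart (log2 fold change -0.76, SE 0.0654, edgeR adjusted p = 8.444e-07), and Siglec1 alone of the list was beyond the fold limit of 0.58. The listed genes with the highest CPM, both galectins, were higher. Lgals3 was at 6530 ± 130.2 CPM in Ctrl and 7117 ± 14.9 CPM in AclyM-KO (SD, n = 3; 0.12, edgeR adjusted p = 0.00288), and Lgals1 at 1202 ± 62.7 and 1567 ± 4.17 CPM (0.38, edgeR adjusted p = 7.227e-06). Named after their values were seen, the siglec genes Cd33 (0.51, edgeR adjusted p = 5.632e-04) and Cd22 (-0.47, edgeR adjusted p = 2.113e-04) moved in opposite directions, and Lgals3bp (-0.20) and Lgals8 (-0.19) were lower.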
